A study of Drosophila melanogaster with 8 samples.

Results

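The middle midgut of the third instar larva, dissected as the subsections M6 and M7–8, was compared with the anterior subsections M1, M2 and M3–5 and the posterior subsections M9, M10–11 and M12–13, which are called the ends. RNA-seq was performed on 8 libraries, 1 for each subsection, so that 2 libraries stand for the middle midgut and 6 for the ends. All larvae were the progeny of a *Drosophila melanogaster* line carrying *GAL4* under the promoter of *Cyp4d2* and of *w*1118 flies carrying *P*{UAS-*GFP*.nls}14 (*w*1118 in the labels), and were taken while feeding. Guts of many larvae were pooled, with GFP as the guide to dissection, and every subsection carries the same transgenes. Of 14207 named entries in the deposited table, 6315 met the expression limit, an FPKM (a read density corrected for exon length and library size) above 5 in at least 1 subsection or above 3 on average, and were compared. For each gene, the mean log2(FPKM + 1) of M6 and M7–8 minus that of the 6 ends is called the difference below. A gene is called above or below where both middle values lay above, or below, all 6 others. There were 382 genes above and 1036 below.

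No subsection was sampled again and subsections are not replicates of a division, so no test was made and values carry no error over larvae. In the deposited 95% intervals of the FPKM values, the lower bound in M6 and in M7–8 was 0 for every gene called above and for every gene called below. Calls therefore describe an order of 8 values. In bulk samples, fewer cells of a type and less RNA per cell cannot be told apart.

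The middle midgut lies between a longer anterior and a longer posterior part and is the acidic stretch of the gut. It holds copper cells, which pump acid into the lumen and store copper, then large flat cells and then iron cells, which are rich in ferritin. Acid secretion of this kind rests on a proton pump, the V-ATPase, together with carbonic anhydrases and ion channels that supply protons and counter-ions. The epithelium at the ends is better known for the secretion of digestive enzymes and the uptake of nutrients.

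The markers of the middle midgut were high in both of its libraries. *GstE10*, a glutathione *S*-transferase, had 110.3 FPKM in M6 and 89.9 in M7–8, against at most 4.70 in the 6 ends. *Cyp6a13*, a cytochrome P450, had 129 and 103 FPKM in M6 and M7–8, against 5.06 to 11.3 at the ends. Both were called above. The study had placed them in a cluster of middle midgut genes formed from these same libraries. Their values are therefore no independent check of the dissection. The copper cell gene *lab*, a Hox gene, had 32.9 FPKM in M6 and 5.40 in M7–8, against 2.53 in M3–5 and at most 0.498 in the other ends. *Vha100-4*, a V-ATPase subunit, marked M6 alone, with 632 FPKM in M6 and 0.627 in M7–8, against 44.2 in M3–5 and at most 0.496 in the other ends. The ferritin chains marked M7–8. *Fer1HCH* had 1717 FPKM in M6 and 7035 in M7–8, against 397 to 2094 at the ends, and *Fer2LCH* had 1382 and 8358 FPKM, against 458 to 2423. The labels of M6 and M7–8 therefore went with the markers of copper cells and iron cells. *Cyp4d2*, whose promoter drives *GAL4*, was called below, with 2.64 FPKM in M6 and 12.5 in M7–8, against 19.2 to 123 at the ends, and that call was lost with each library rescaled to the same summed FPKM.

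Genes called above were 6.05% of the 6315 and genes called below 16.4%. A difference of at least 1 in size, which is 2-fold, was met by 233 genes above (3.69%) and 707 below (11.2%). The excess of genes below depended on the scale. Among called genes, 26.9% were above and 73.1% below on the authors' scale, 46.9% and 53.1% with each library rescaled to the same summed FPKM (352 above, 399 below), and 40.4% and 59.6% with a median ratio scale, in which each library is divided by the median of its ratios to the geometric mean of all 8 (588 above, 866 below). The share of the 6315 genes was 5.57% above and 6.32% below with the same summed FPKM and 9.31% above and 13.7% below with the median ratio. By at least 2-fold, the shares above and below were 4.54% and 4.58% with the same summed FPKM and 5.29% and 9.14% with the median ratio. The median difference of all genes moved with it, at −0.29 on the authors' scale, 0.18 with the same summed FPKM and −0.13 with the median ratio. The difference of a single gene can be read against these shifts. In all 3 scales, 248 genes were above (3.93%) and 344 below (5.45%), by at least 2-fold 3.01% above and 4.31% below, and a call that was not kept in all 3 is named as such below. The FPKM values summed to 717378 in M6 and 711118 in M7–8, against 542365 to 1806163 at the ends, and the median ratio was 0.774 in M6 and 1.08 in M7–8, against 0.994 to 1.08 at the ends. RNA of M6 was more prone to degradation and gave fewer reads, so that a low value in M6 and this loss cannot be told apart. The part of either in the results was not tested. With 1 middle library the order is easier to meet. Without M7–8, 690 genes were above and 2761 below, and without M6, 1124 were above and 1271 below.

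**Figure D1:**
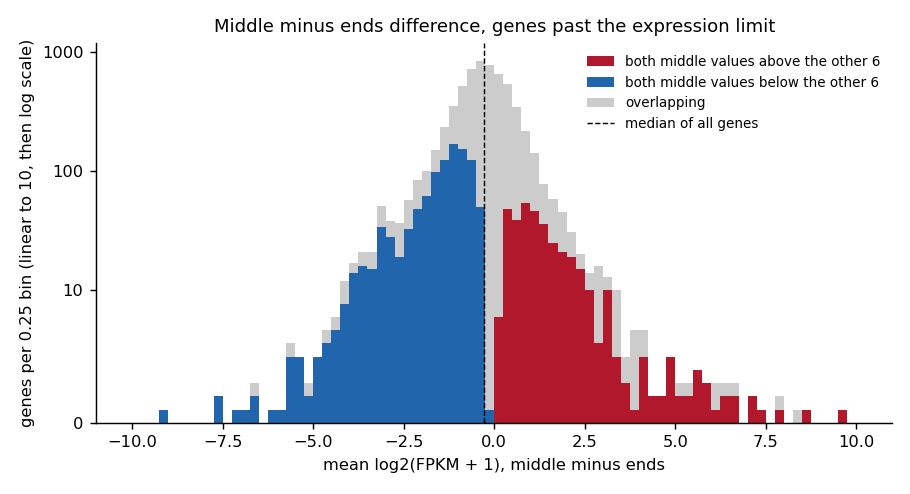
Number of genes (y axis, linear up to 10 and then a log scale) by the middle minus ends difference of mean log2(FPKM + 1) (x axis) for the 6315 genes compared, stacked as genes above (red), genes below (blue) and genes whose values overlap (gray). The median of all genes, the dashed line, is at −0.29, and genes above reach 9.71 while genes below reach −9.16.

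The metallothioneins *MtnA*, *MtnB*, *MtnC* and *MtnD* were called above. Of 11 genes for metallothioneins and copper handling past the expression limit, 4 were above (36.4%, against 6.05% of all genes) and 1 was below, and the median difference was 0.60, against −0.29 for all genes. Metallothioneins are small, cysteine-rich proteins that bind copper, zinc and cadmium. *MtnB* (chromosome 3R, 16328960 to 16329340 on FlyBase release 5, as are all positions here) had the largest difference of all genes called, at 9.71, with 18448 FPKM in M6 and 4387 in M7–8. Its value at the ends was 3.34 FPKM in M1, 1.18 in M2, 109 in M3–5, 41.3 in M9, 0.397 in M10–11 and 24.2 in M12–13. The lower middle value was 40.2 times the highest end value, and the deposited interval in M6 ran from 0 to 60441 FPKM. *MtnC*, on 3R from 16186030 to 16186356, reached 2912 FPKM in M6 and 1429.9 in M7–8, against 3.33 to 44.4 at the ends. *MtnA* was the most abundant of the genes above, with 50388 FPKM in M6 and 35566 in M7–8. Among the ends it had 23102 FPKM in M12–13 and between 621 and 4855 in the others, so that the hindmost subsection came nearest to the middle. *MtnD* had 3008 and 5012 FPKM in M6 and M7–8, against 347 to 1650.3 at the ends. *MtnE* overlapped, with 3414 FPKM in M6 and 3907 in M7–8, between the 5463 and 6147 FPKM of M1 and M2 and the 932 to 2389.5 of the other ends.

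Genes that move copper did not share this order. *ATP7*, the copper-exporting ATPase, had 48.6 FPKM in M6 and 22.3 in M7–8, against 8.55 to 28.4 at the ends, and the importer *Ctr1A* had 16.9 and 28.3 FPKM, against 11.9 to 32.2. *MTF-1*, the factor that turns metallothioneins on when metal is high, had 19.8 FPKM in M6 and 42.5 in M7–8, against 29.1 to 59.5 at the ends, so its values overlapped. The copper chaperone *Ccs* was below on the authors' scale (9.43 and 11.9 FPKM in M6 and M7–8, against 12.5 to 32.3), a call lost with the same summed FPKM.

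Zinc and iron genes split between M6 and M7–8. Of 14 zinc transporters past the limit, 2 were above (14.3%) and 3 below (21.4%), and all 3 calls below were lost with the same summed FPKM. *Zip42C.2* had 0.550 FPKM in M6 and 50.9 in M7–8, against at most 0.0918 at the ends, so that its call rests on a low value in M6. *foi*, another transporter of the ZIP family, had 18.2 and 41.7 FPKM in M6 and M7–8, against 4.42 to 13.1. None of 9 iron genes past the limit was above or below. *Mvl*, an NRAMP-type importer of divalent metals, had 46.1 FPKM in M6 and 213 in M7–8, against 17.6 to 69.3 at the ends, so that M9 exceeded M6 as it did for both ferritin chains.

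**Figure D2:**
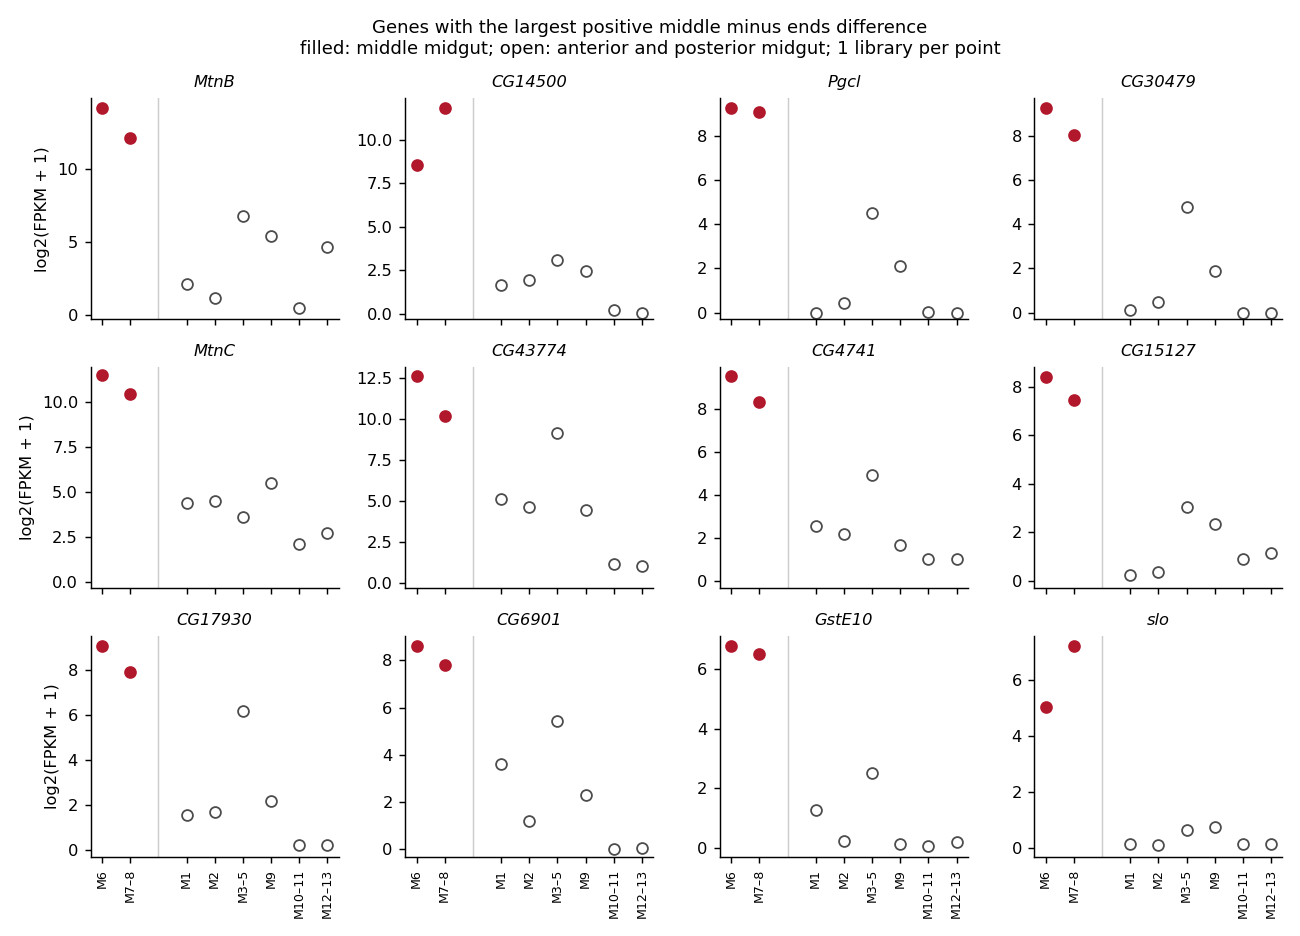
log2(FPKM + 1) (y axis) in each subsection (x axis) for 12 genes with a large positive difference, with filled points for the middle midgut and open points for the ends, 1 library per point. Both filled points lie above every open point, and M3–5 is the highest open point in most panels.

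V-ATPase genes as a group did not set the middle apart. Of 21 subunit genes past the limit, none was above and 1, *Vha100-5*, was below (4.76%, against 16.4% of all genes), with a median difference of −0.08. *Vha55*, a subunit of the catalytic sector, had 1062 FPKM in M6 and 828 in M7–8, against 572 to 989 at the ends. The subunit a family was regional, and its members differed in direction. *Vha100-5* had 34.3 FPKM in M6 and 206 in M7–8, against 271 to 1016 at the ends (call lost with the same summed FPKM), where *Vha100-4* was high in M6 alone. *Vha100-2* had 211 and 357 FPKM in M6 and M7–8, against 245 in M1 and at most 126 in the other ends.

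Single genes for carbonic anhydrase and for channels had large differences. *CAH1*, a carbonic anhydrase, which makes bicarbonate and protons from CO2, had 188 FPKM in M6 and 166 in M7–8, against 29.8 in M3–5 and at most 8.02 in the other ends. It shares its bundle (chromosome 2L, 13803626 to 13811474), the stretch that Cuffdiff quantified together, with *Adat1*, a tRNA adenosine deaminase, which had 682 and 267 FPKM in M6 and M7–8, against 4.05 to 70.3. The libraries did not keep strand, so reads of overlapping neighbors cannot be assigned with certainty. Of 5 carbonic anhydrases past the limit, *CAH1* was the 1 above, and *CAH9* had 147 FPKM in M6 and 24.0 in M7–8, against 31.1 in M3–5.

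Of 19 ion pumps, exchangers and channels, 2 were above (10.5%) and 1, *KCNQ*, was below, a call lost with the same summed FPKM, and the median difference was 0.27. *slo*, the calcium-activated potassium channel, had 31.8 FPKM in M6 and 148 in M7–8. At the ends it had 0.104 FPKM in M1, 0.0855 in M2, 0.567 in M3–5 and 0.671, 0.117 and 0.117 in M9, M10–11 and M12–13. All 6 ends were under 1 FPKM, and the difference was 5.80. Its binding partner *Slob*, chosen after its values were seen, had 13.7 and 6.94 FPKM in M6 and M7–8, against at most 0.125 at the ends. *Ork1*, an open rectifier potassium channel, had 14.0 and 15.5 FPKM in M6 and M7–8, against at most 1.88. The other call above in the list, *Atpalpha*, the catalytic subunit of the sodium pump, was close to its limit, with 44.6 and 49.4 FPKM in M6 and M7–8, against 35.6 to 42.5, and was lost with the same summed FPKM. *pHCl-2*, a chloride channel opened by zinc and by a change in pH that was also chosen after its values were seen, had 95.7 FPKM in M6 and 98.8 in M7–8, against 80.0 in M3–5 and at most 4.70 in the other ends. M3–5 was therefore close to the middle for this channel, at a ratio of 1.20 between the nearest values.

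Aquaporins lay on both sides. *Eglp3*, an entomoglyceroporin, a water channel that also passes small solutes, had 133 FPKM in M6 and 13.6 in M7–8, against 2.83 in M3–5 and a listed value of 0 in the other ends. *Eglp2*, in the same bundle, was below, with 1.55 and 7.33 FPKM in M6 and M7–8, against 39.8 to 172, and so was *Drip*, a water channel, with 0.742 and 13.1 FPKM, against 22.0 to 176 (call lost with the same summed FPKM). The remaining members past the limit, *Prip* and *Eglp4*, overlapped, and the median of the 5 was −1.68.

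Several transcription factors that pattern the gut were called above. Of 13 regional factors and signals past the limit, 6 were above (46.2%, against 6.05% of all genes) and none was below. Among the 6, *lab*, *dve* and *apt* had at most 2.53, 3.58 and 2.41 FPKM at the ends. They passed the limit only through M6 or M7–8, so the share follows in part from the limit. *Ptx1*, a homeodomain protein of the Pitx family, had the largest difference, 5.29, with 41.1 FPKM in M6 and 92.7 in M7–8, against 5.09 in M9 and at most 0.558 in the other ends. *dve*, a homeodomain protein that acts in copper cells, had 19.7 and 25.6 FPKM in M6 and M7–8, against 0.221 to 3.58. *hth*, a cofactor of Hox proteins, had 21.7 FPKM in M6 and 34.0 in M7–8, and M9 was near to it at 19.1, with at most 7.88 in the other ends. *tsh*, a zinc-finger protein, had the same order, with 11.0 and 18.5 FPKM in M6 and M7–8, against 9.48 in M9 and at most 7.61 in the others. *apt* had 11.5 and 2.72 FPKM in M6 and M7–8, against 0.462 to 2.41, and was not called with the same summed FPKM. Thus *Ptx1*, *dve*, *hth* and *tsh* were higher in M7–8 and *lab* and *apt* in M6. The factors that overlapped included *GATAe*, with a difference of 0.01, and *cad*, a homeobox gene of the hind part of the gut, which had 0.0240 FPKM in M6 and 9.90 in M7–8, against 25.1 to 40.7 in the posterior subsections.

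Of 11 enteroendocrine peptide genes past the limit, 3 were above (27.3%) and none was below, although the median difference was −0.30, close to that of all genes. *Orcokinin*, a neuropeptide gene, had 55.3 FPKM in M6 and 69.9 in M7–8, against at most 3.86 at the ends. *NPF*, the fly homolog of neuropeptide Y, had 31.4 and 46.2 FPKM in M6 and M7–8, against at most 1.52. *ITP*, ion transport peptide, had 5.22 and 11.6 FPKM in M6 and M7–8, against 0.386 to 1.66. All 3 passed the expression limit only through M6 and M7–8, so they had to be high there and their share above follows in part from the limit. Other peptides had other orders. *AstC* had 5.04 FPKM in M6 and 106 in M7–8, against 23.9 in M9, and *Tk* and *AstA* were highest in M12–13, at 16.5 and 55.9 FPKM, with at most 0.307 in the middle. *DopEcR*, a receptor for dopamine and ecdysteroids, also had a large difference, with 38.2 FPKM in M6 and 61.0 in M7–8, against at most 0.280 at the ends.

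**Figure D3:**
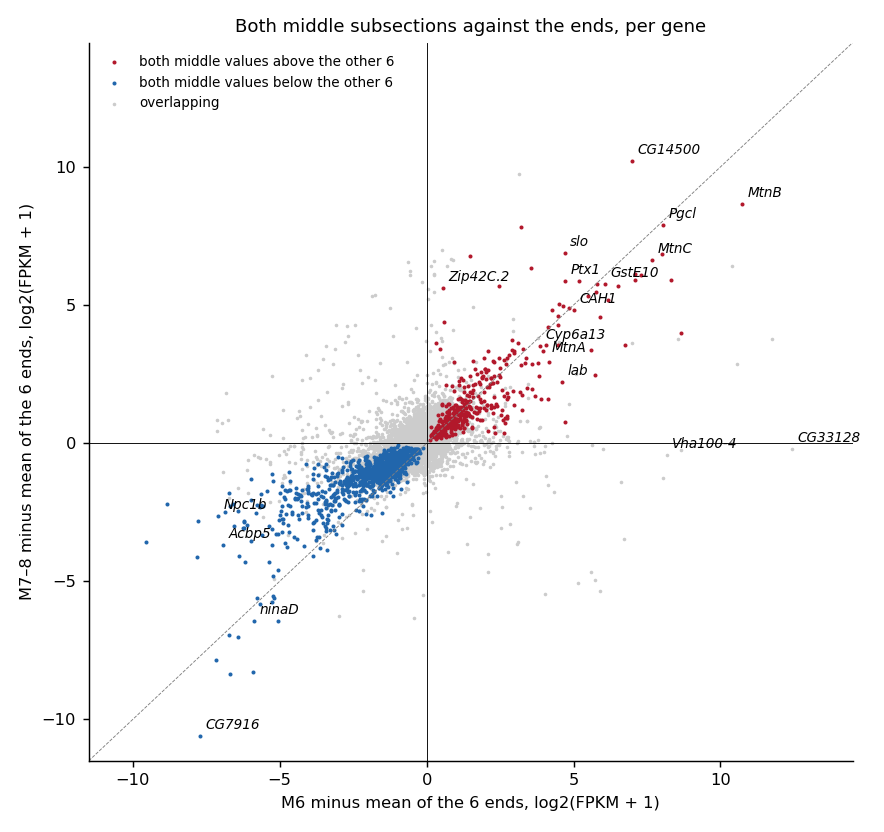
M6 (x axis) and M7–8 (y axis), each minus the mean of the 6 ends in log2(FPKM + 1), for the 6315 genes compared, with genes above in red, genes below in blue, overlapping genes in gray and equal values on the dashed line. *MtnB*, *Pgcl* and *CG14500* are far out in both, *Vha100-4* and *CG33128* lie on the M6 axis alone, and most blue points lie above the dashed line.

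Pepsin-like aspartic proteases and cysteine cathepsins included genes called above. Of 7 pepsin-like aspartic proteases past the limit, 2 were above (28.6%) and none below, with a median of 1.53. *Pgcl*, pepsinogen-like, had 606 FPKM in M6 and 543 in M7–8, against 21.6 in M3–5, 3.37 in M9 and at most 0.359 in the other ends. Its difference of 7.98 was exceeded only by those of *MtnB* and *CG14500* among genes above, and its bundle on chromosome X (162542 to 364670) holds 15 entries. *cathD*, the lysosomal cathepsin D, had 901 and 661 FPKM in M6 and M7–8, against 336 to 614. Another member, *CG33128*, reached 24758 FPKM in M6 but 2.87 in M7–8, against 1089 in M3–5 and at most 6.34 in the other ends. Of 5 cysteine cathepsins, *CtsF* was above, with 308 and 210.3 FPKM in M6 and M7–8, against 90.1 to 174, and the others overlapped.

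No serine protease of the trypsin or Jonah lists was above. Of 12 trypsins, 4 were below (33.3%, against 16.4%), with a median of −2.30. *lambdaTry* was listed at 0 FPKM in M6 and had 29.8 in M7–8, against 62.4 to 659 at the ends, and *kappaTry* had 6.61 and 36.3 FPKM, against 260.3 to 1446. *iotaTry* (2.76 and 7.19 FPKM in M6 and M7–8, against 19.9 to 440.1) kept its call in all 3 scales, and *etaTry* did not. None of 16 Jonah proteases was called, although their median of 1.53 was high. The 16 genes differed in shape. *Jon66Ci* had 458 FPKM in M6 and 25917 in M7–8, against 33119 in M9 and 3.27 in M1, whereas *Jon74E* had 68.3 and 0.167 FPKM in M6 and M7–8, against 1.20 in M9 and 3516 in M1. Several trypsin and Jonah genes are near-identical copies between which reads can be split. Of 7 maltases, which cut sugars at the brush border, none was above and 2 were below (28.6%), and the median was −2.49. *Mal-A4* had 0.150 FPKM in M6 and 4.29 in M7–8, against 14.6 to 29.6.

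Lysosomal genes were split. Of 13 lysosomal glycosidases and membrane proteins past the limit, 2 were above and 4 below (15.4% and 30.8%). *Lamp1*, a major membrane protein of lysosomes, had 983 and 486 FPKM in M6 and M7–8, against 265 to 416, and *CREG*, a secreted and lysosomal glycoprotein, had 588 and 219.7, against 10.9 to 172. The genes below included the mannosidase genes *LManI* and *LManV*, which were nearly confined to M12–13, at 69.3 and 300.5 FPKM, and which had at most 0.00675 FPKM in M6 and M7–8. Their call below rests on differences between values near 0, and that of *LManV* was not kept in all 3 scales. Tetraspanins of the *Tsp42E* cluster, a family of membrane proteins, were above in 3 of 11 cases (27.3%) and below in 1. The gene below, *Tsp42Ef*, had 17.0 and 32.9 FPKM in M6 and M7–8, against 58.2 to 102, a call lost with the same summed FPKM. *Tsp42Ec* had 3926 FPKM in M6 and 839 in M7–8, against 4.01 to 552, *Tsp42Ed* had 794 and 1078, against 359 to 605, and *Tsp42Eq* had 280.2 and 309, against 101 to 126.

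Most of the genes with the largest differences have no role that the files give. *CG14500* had 375 FPKM in M6 and 3550.3 in M7–8, against 0.0394 to 7.46 at the ends. *CG30479* had 605 and 264 FPKM in M6 and M7–8, against 26.6 in M3–5, 2.70 in M9 and less than 1 in the other ends. *CG43774* had 6206 and 1171 FPKM in M6 and M7–8, against 577 in M3–5 and at most 33.8 in the others. For these 3 genes M3–5 was the nearest end, and M10–11 and M12–13 were the farthest. *CG17930* and *CG6901*, which share a bundle on chromosome 3R (12136264 to 12167710), had the same order of subsections from high to low down to M3–5. They had 542 and 392 FPKM in M6 and 238 and 223 in M7–8, against 70.9 and 42.9 in M3–5. *bwa*, a gene for an alkaline ceramidase, was nearly level in the middle, at 192 FPKM in M6 and 186 in M7–8, against at most 10.4 at the ends, in M9. *CG10799* was uneven, at 21.7 and 550.2 FPKM in M6 and M7–8, against at most 8.00. *Gagr*, a gene derived from the *gag* of a retrotransposon and chosen after its values were seen, had 33.5 and 36.9 FPKM in M6 and M7–8, against at most 1.63. Among the most abundant genes above, *Pebp1*, a phosphatidylethanolamine-binding protein, had 3619 and 5369 FPKM in M6 and M7–8, against 1871 in M1 and 12.6 to 457 in the other ends, and *CG34301* had 4002 and 4938, against 219.7 to 1348.

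The genes most like *GstE10* over the 8 subsections, by Pearson's r of log2(FPKM + 1), were *CG4741* (r = 0.99), *Ork1* (r = 0.99), *CG12194* (r = 0.98), *CG18746* (r = 0.98) and *l(2)k01209* (r = 0.98), and these r values describe 8 libraries that share 2 high points. *CG4741* had 737 FPKM in M6 and 319.8 in M7–8, against 30.0 in M3–5 and at most 5.03 in the other ends. *CG12194* had 291 and 147 FPKM, against 1.26 to 15.1, and *CG18746* had 56.1 and 49.9, against 0.112 to 9.82. *l(2)k01209* had the same shape over a small range, with 11.2 and 9.61 FPKM in M6 and M7–8, against 3.42 to 4.84.

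Genes of xenobiotic metabolism were found on both sides. Of 29 GSTs past the limit, 2 were above (6.90%) and 11 below (37.9%, against 16.4%), with a median of −1.29. Besides *GstE10*, the only GST above was *GstS1*. *GstE7*, from the same gene cluster as *GstE10*, had 24.3 FPKM in M6 and 80.7 in M7–8, against 215 to 1236 at the ends, and *GstE3* had 49.7 and 263, against 536 to 2358. With the same summed FPKM, 8 of the 11 were still below. Of 52 P450s, 5 were above (9.62%) and 10 below (19.2%), close to the 6.05% and 16.4% of all genes. Those above other than *Cyp6a13* included *Cyp12b2*, with 18.6 and 18.4 FPKM in M6 and M7–8, against 2.14 to 11.7, and *Cyp9c1*, with 57.0 and 66.1, against 17.1 to 36.5. Those below included *Cyp4d8*, with 0.772 and 7.62 FPKM in M6 and M7–8, against 22.8 to 215, and *Cyp6a21*, with 53.4 and 60.3, against 92.0 to 441. With the same summed FPKM, 8 P450s were above and 7 below. Of 10 UGTs, none was above and 5 were below (50%), of which 2 were below with the same summed FPKM. Of 32 ABC transporters, 1 was above (3.13%) and 5 below (15.6%), both shares under those of all genes. No call below was left with the same summed FPKM.

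The alpha-esterase cluster on chromosome 3R held both directions side by side. Of 9 members past the limit, 2 were above and 4 below (22.2% and 44.4%). *alpha-Est8* had 39.7 FPKM in M6 and 52.5 in M7–8, against 33.4 in M9 and at most 14.3 in the other ends. *alpha-Est2*, which lies beside the *alpha-Est3* gene that is above, had 2.65 and 8.78 FPKM in M6 and M7–8, against 15.5 to 107. *alpha-Est4*, on the other side of *alpha-Est3*, had 14.7 and 41.5 FPKM, against 72.0 to 144.

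*ninaD*, a scavenger receptor for the uptake of carotenoids on 2L from 18081628 to 18083608, reached only 19.3 FPKM in M6 and 12.8 in M7–8. At the ends it had 525 FPKM in M1, 3784 in M2, 3317 in M3–5 and 248, 721 and 2479 in M9, M10–11 and M12–13. Its difference was −6.16, and M9 was its lowest end. *Npc1b*, the sterol transporter of the gut, had 2.31 FPKM in M6 and 71.8 in M7–8, against 238 to 805, and *Npc2e* had 21.2 and 262, against 1056 to 4991. Other Niemann-Pick type C (NPC) genes were above. *Npc1a*, whose product moves sterol out of lysosomes in most cells, had 36.5 and 29.8 FPKM in M6 and M7–8, against 5.56 to 24.3, though its quantification was not marked OK throughout. *Npc2f* had 2157 and 2380.1 FPKM in M6 and M7–8, against 87.8 to 1122. Of 8 NPC genes past the limit, 2 were above (25%) and 3 below (37.5%), and 2 were below with the same summed FPKM.

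Acyl-CoA-binding proteins, which carry activated fatty acids, were among the most abundant of the genes below. *Acbp2* had 544 FPKM in M6 and 1872 in M7–8, against 4502 to 44106 at the ends, and *Acbp5* had 66.6 and 641, against 4254 to 19936. *vanin-like*, related to pantetheinases, was low in M6 above all, with 4.75 FPKM in M6 and 572 in M7–8, against 1445 to 5194. *CG14205* and *CG33127* had this shape as well. *CG14205* had 3.10 FPKM in M6 and 253 in M7–8, against 1385 to 7261, and *CG33127* had 1.11 and 26.6, against 244 to 772.

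The most negative differences, those of *CG7916* and *CG8997*, came from the same stretch of chromosome 2L. The bundle from 13835567 to 13898715 holds 7 entries, of which 5 were below: *CG7916*, *CG8997*, *CG33306*, *CG7968* and *CG7953*. *CG7916* had 16.6 FPKM in M6 and 1.40 in M7–8. At the ends it had 21592 FPKM in M1, 36458 in M2, 6498 in M3–5 and 45.6, 5145 and 2142 in M9, M10–11 and M12–13. *CG8997* had 31.4 and 19.3 FPKM in M6 and M7–8, against 60.2 in M9 and 3026 to 37955 in the other ends. For *CG7916*, *CG8997*, *CG33306* and *CG7953*, M9 was nearer to the middle than to the other ends on the log2 scale, while *CG7968* had 12.7 and 10.9 FPKM in M6 and M7–8, against 260.5 in M9. *CG7953* and *CG33306* had 20.5 and 6.07 FPKM in M6, against 23.8 and 6.69 in M9, and their calls were not kept in all 3 scales.

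The peroxiredoxins *Prx6b* and *Prx6c* and the neighboring *CG12896* on chromosome 2R had the same order of the ends, in which M9 was the lowest. *Prx6c* had 16.2 FPKM in M6 and 18.2 in M7–8, against 44.2 in M9 and 319 to 7156 in the other ends, and *Prx6b* had 11.5 and 10.3 FPKM, against 21.1 in M9 and 167 to 5717 elsewhere. These genes are similar copies, so that reads can be split between them. *CG15534* had 5.69 FPKM in M6 and 1.10 in M7–8, against 183 to 1627. *CG4783* had 13.6 and 4.66 FPKM, against 30.2 in M9 and 624 to 1213 in the other ends. *CG1208* had 1.49 and 0.869 FPKM, against 6.58 in M9 and 36.7 to 302 in the other ends.

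**Figure D4:**
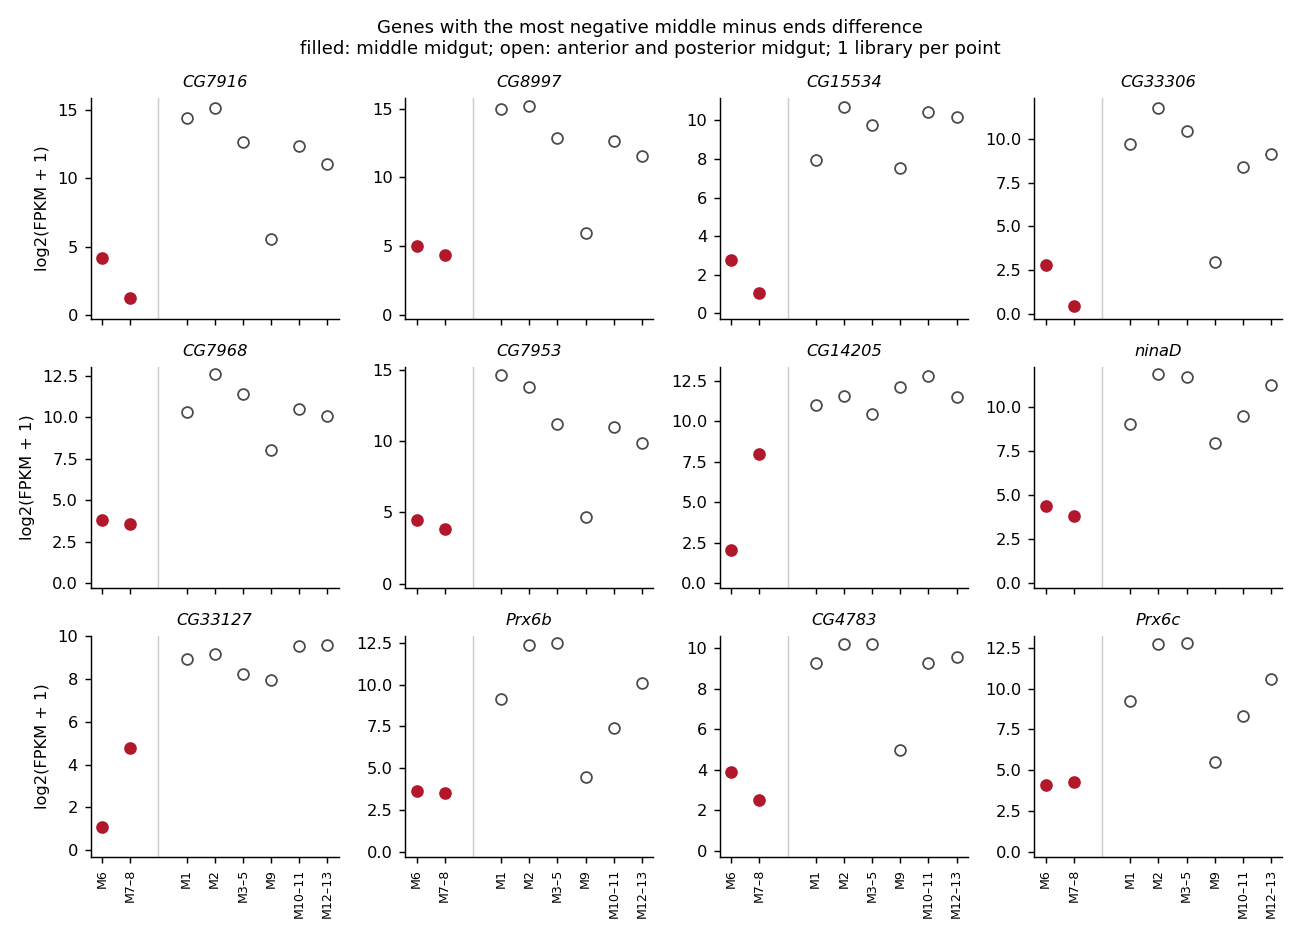
log2(FPKM + 1) (y axis) in each subsection (x axis) for 12 genes with a large negative difference, with filled points for the middle midgut and open points for the ends, 1 library per point. Both filled points lie below every open point, and the open point of M9 lies nearest to them in every panel except that of *CG14205*.

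Housekeeping lists show how far the scale reaches. None of 84 cytoplasmic ribosomal protein genes and none of 33 proteasome genes was above or below, with medians of −0.32 and −0.17. Of 72 mitochondrial ribosomal protein genes, 32 were below (44.4%) and none above, with a median of −1.01, and M6 was the lowest of the 8 subsections for 52 of them. With the same summed FPKM 1 was below, and with the median ratio 25. The call of septate junction genes depended on the scale too. Of 16, 3 were above (18.8%), *cora*, *Nrg* and *Atpalpha*, and none was with the same summed FPKM. Of 14 peptidoglycan recognition and antimicrobial peptide genes, 2 were above (14.3%). *PGRP-LA*, a recognition protein, had 74.8 and 23.7 FPKM in M6 and M7–8, against 2.80 to 21.9, and was lost with the same summed FPKM. *Drsl3*, a drosomycin-like peptide, had 0.384 FPKM in M6 and 9.55 in M7–8, against a listed value of 0 in all 6 ends.

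**Figure D5:**
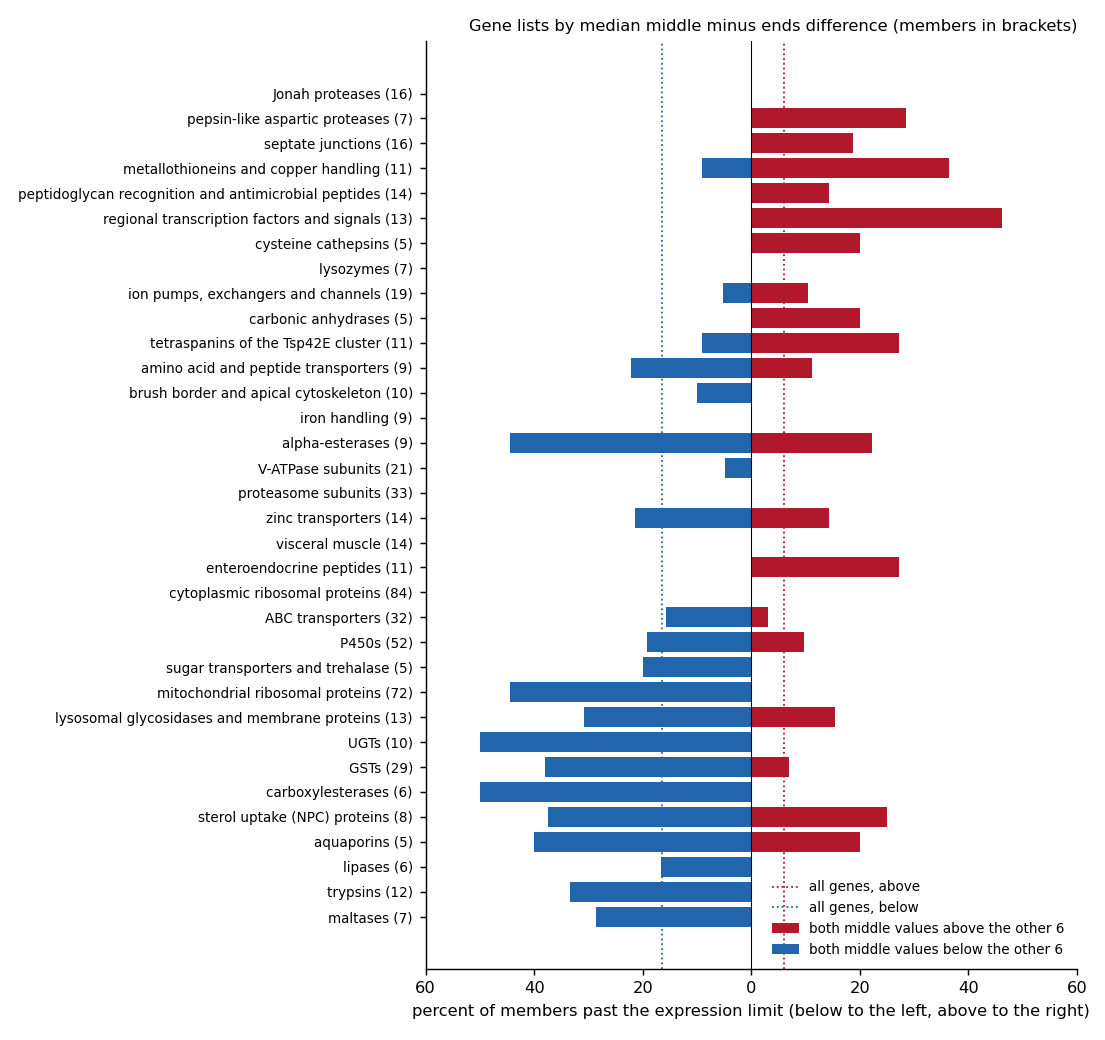
Percent of the members past the expression limit that were below (bars to the left) and above (bars to the right) for 34 gene lists, ordered by their median difference, with the number of members in brackets and dotted lines at 16.4% and 6.05% for all genes. Regional transcription factors (46.2%) and metallothioneins and copper handling (36.4%) have the longest bars on the right.

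Markers of other tissues were summed over each list. Visceral muscle, which surrounds the gut, had 945 FPKM in M6 and 2069.6 in M7–8, against 1261 to 2775 at the ends, and none of its 14 genes was above or below. Fat body genes summed to 1.22 FPKM in M6 and 3.56 in M7–8, against 0.322 to 35.6 at the ends, and trachea genes to 6.56 and 3.47, against 2.15 to 9.74. Of salivary gland, Malpighian tubule, hemocyte and neuron genes, none passed the expression limit, and each list summed to less than 4 FPKM in every library. Their part in the differences was not tested.

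Transcript length did not enter the rule for the calls, but called genes differed in it. Its part in the differences was not tested. Genes above had a median transcript length of 2152 nt (366 genes with a length) and genes below of 1355 nt (1013 genes), against 1704 nt for all (6068 genes). Across genes, which are not independent replicates, Spearman's rho between length and the difference was 0.40. It was 0.57 for the middle minus the anterior and −0.14 for the middle minus the posterior subsections, so that the relation lay on the anterior side.

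The end values were part of the rule, so the order of the ends within each call is a description. Among the 382 genes above, the highest end was M12–13 for 112, M1 for 32 and M2 for 11, against 1081, 1439 and 1433 of all 6315 genes, and the lowest end was M2 for 181, against 1526 of all. Among the 1036 genes below, the highest end was M2 for 403 and M1 for 383, against 1433 and 1439 of all 6315 genes, and the lowest end was M9 for 412, against 1416 of all.

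Within the middle, M6 was higher than M7–8 for 204 of the 382 genes above and lower for 178. For the 1036 genes below, M6 was lower than M7–8 for 927 and higher for 103, while it was lower for 4779 of all 6315 genes. For 38 of the genes above, no end exceeded 5 FPKM and the mean of all 8 libraries was at most 3. These passed the expression limit only through M6 or M7–8 and had to be high there. This count is a lower bound. It leaves out genes such as *slo*, with at most 0.671 FPKM at the ends, whose mean passed 3 through the middle values. Shares above in lists that hold such genes follow in part from the limit. The nearest values on either side differed at least 2-fold for 90 genes above and 156 below. Both middle values were under 1 FPKM for 38 genes below, and all 6 ends were under 1 FPKM for 21 genes above.

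Some neighbors on a chromosome shared a call. Of 380 genes above with a gene identifier, 84 (22.1%) had a flanking gene of the compared set that was above too, against 650 of 5893 other genes (11.0%) with such a neighbor. For genes below the shares were 35.2% (364 of 1034) and 27.7% (1453 of 5239). Flanking genes were taken from other bundles, past any gene in the same bundle. The reason for the shared calls was not tested.

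A large mean difference did not always place both subsections apart. Of 81 genes with a difference of at least 3, 26 were not above all 6 ends: for 12 only M6 was, for 9 only M7–8, and for 5 neither. *CG9682* was of the first kind and had 20067 FPKM in M6 and 1266 in M7–8, against 3282 in M3–5 and at most 63.7 in the other ends, and *CG5767* had 22552 and 89.2, against 860.4 in M3–5 and at most 9.58. *CG8560* was of the second kind, with 132 FPKM in M6 and 12988 in M7–8, against 4201 in M9 and at most 19.1 in the other ends. In these genes, chosen after their values were seen, the adjoining end subsection was above the lower of the middle values.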

How the data were processed

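Reads of 8 unstranded libraries, 1 per subsection, were filtered by the authors with PRINSEQ, mapped to the annotated genome (FlyBase release 5) with Bowtie and TopHat2 2.0.6, and quantified with Cuffdiff 2.0.2. For the deposited FPKM values, the authors used upper-quartile normalization and corrected for multireads and fragment bias, and the deposited table also holds 95% intervals and other columns of quantification status. Values carry no counts, so the depth behind a value is unknown. The authors' tests of differential expression were not used.

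An unnamed entry with failed quantification (48.4% of summed FPKM in M6, 4.24% to 13.8% elsewhere) was left out. The limit was an FPKM above 5 in any subsection or a mean above 3. Differences used log2(FPKM + 1), a scale on which those of low genes are understated. Transcript lengths came from a later annotation, joined by identifier. Of 14207 names, 13635 matched a gene table. Python 3.11.15, numpy 2.4.6, pandas 2.3.3, scipy 1.17.1, statsmodels 0.14.6 and matplotlib 3.10.9 were used. The rule for the calls was run on simulated libraries with large shifts in both middle subsections and little noise. These held no difference in scale and no loss of RNA, so they do not bear on either in the data.

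Genes named are the markers and *alpha-Est3*, the 20 genes above with the largest and the 15 genes below with the most negative difference (status OK, gene identifier), the 5 of each call with the highest mean FPKM, the 5 most like *GstE10*, and members of 41 gene lists where a list is described. The lists come from general knowledge and from the families of the study's supplement, and 5 names matched no entry. Members and lists were chosen with earlier results of these data known. Alternatives were 2 other scales, a pseudocount of 0.1, no limit or a mean above 10, only status OK, no transcript identifiers, only M3–5 and M9 as ends, a length trend removed (lowess, share 0.3) and each library left out. Calls in all 3 scales were added after seeing the data.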

Additional observations from a re-analysis of the deposited data

How the results depend on the processing

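With each library rescaled to the same summed FPKM (1000000), 399 genes were below and 289 below by at least 2-fold, and the median difference of all genes was 0.18. With the median ratio, 588 genes were above and the median was −0.13. Without an expression limit, 784 were above and the median was −0.018. With a mean FPKM above 10, 221 were above, 142 by at least 2-fold, and the median was −0.49. Against M3–5 and M9 alone, 679 were above and 1652 below. Calls in all 3 scales, an alternative chosen after seeing the data, were 248 above, 344 below and 272 below by at least 2-fold. With the length trend removed, the median was 0.0054 and the difference of *Npc2b* 0.11, against −0.58. The causes were not tested beyond what these settings change by construction. Leaving out each library in turn gave 389 to 1124 genes above (1124 without M6, 690 without M7–8), 1046 to 2761 below (2761 without M7–8), 211 to 468 above by at least 2-fold (468 without M6, 419 without M7–8), 610 to 1601 below by at least 2-fold (1601 without M7–8), and a median of −0.49 (without M7–8) to −0.12 (without M6). Of 34 lists with at least 5 members, 19 had a median above that of all genes, 15 to 22 over the alternatives. Of 149 named genes and called members, 39 lost their call with the same summed FPKM and 8 with the median ratio.

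No paired analysis was possible because each subsection has 1 library. With no replicates and no counts, no value has an error over larvae, and the reads behind a value are unknown.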

Other observations

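In many genes the middle midgut formed a step between the ends instead of standing apart from both. Both middle values lay below all 3 anterior and above all 3 posterior values for 176 genes, and above all 3 anterior and below all 3 posterior values for 155. The genes named here were taken after their values were seen. The lysozyme *LysS* had 64.8 FPKM in M6 and 14.9 in M7–8, against 4024 to 57738 in the anterior and 0.306 to 1.69 in the posterior subsections. *Bace*, an aspartic protease, had 211 and 0.959 FPKM in M6 and M7–8, against 1008 to 4024 in the anterior and at most 0.207 in the posterior subsections. *thetaTry*, a trypsin, had 279.6 and 195 FPKM, against 2455 to 9088 in the anterior and at most 1.58 in the posterior subsections.

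In the other direction, *bmm*, the triglyceride lipase brummer, had 31.9 FPKM in M6 and 40.2 in M7–8, against 5.71 to 9.14 in the anterior and 76.2 to 219.7 in the posterior subsections. *mino*, a glycerol-phosphate acyltransferase, had 7.55 and 19.6 FPKM, against 2.90 to 3.84 in the anterior and 37.2 to 91.3 in the posterior subsections. *oys*, a lysophospholipid acyltransferase, had 75.3 and 69.7 FPKM, against 6.82 to 11.2 and 79.4 to 97.2. The middle minus ends difference was 0.12 for *bmm*, −0.23 for *mino* and 1.29 for *oys*.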
